A study of Mus musculus with 24 samples.

Results

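White fat of C57BL6 mice was examined for 10 genes that mark mast cells and eosinophils. The 10 genes (Cpa3, Mcpt4, Cma1, Tpsb2, Kit, Fcer1a, Ms4a2, Siglecf, Rnase2a and Hdc) were chosen by name from the 54532 genes of the deposited table, with earlier results of these data known. All 10 were found there. The animals had been given adeno-associated virus (AAV) that carried irisin, the secreted part of the FNDC5 protein, or the control AAV-GFP, and had eaten a high-fat diet (HFD) or normal chow for 18 weeks. Polyadenylated RNA of inguinal fat under the skin (iWAT) and of epididymal fat in the abdomen (eWAT) was sequenced, giving 24 libraries, 3 in each of 8 groups set by depot, vector and diet. Every group carried a vector, so no group shows untreated fat. The labels used here give no age of the mice and no promoter of the vector, and do not tell if the 3 libraries per group stand for different animals. P-values therefore reflect the variation among these libraries alone, which may be technical. The series title places irisin upstream of IL-33 and its receptor ST2, which mast cells and eosinophils are among the cells to bear.

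Mast cells are tissue cells of the blood lineage that store histamine and proteases in granules. They release these stores when IgE bound to its high-affinity receptor is cross-linked, and they depend on stem cell factor acting through KIT. Those of mouse connective tissue hold carboxypeptidase A3, chymases and tryptases. Eosinophils are granulocytes recruited by IL-5 and eotaxins, and in lean white fat they are known as a source of IL-4. In obese epididymal fat, the best known immune change is a gain of macrophages around dying adipocytes.

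Read depth was 14.1 M to 19.7 M gene reads per library, and the middle value was 16.4 M. Levels are in FPKM, reads scaled to gene length and library depth, so they may be compared between genes. Effects are differences of log2(FPKM + 0.5) ± SE, a scale that understates changes of low genes, and calls rest on limma with Benjamini-Hochberg adjustment over every gene tested, at a threshold of 0.05. In bulk tissue, fewer cells of a type and less RNA per cell cannot be told apart. Several libraries stood apart. The third iWAT GFP chow library was low in macrophage markers (summed level of 10 genes 51.0 FPKM, against 316 and 341 in the other libraries of its group) and in 3 stromal progenitor markers (13.8 against 141 and 149). The second eWAT irisin HFD library was also low in macrophage markers (283 against 722 and 1000). Markers of lymphoid tissue, muscle or epididymis were high in 4 further libraries: iWAT GFP HFD 1, iWAT irisin chow 3, eWAT GFP chow 1 and eWAT GFP HFD 3.

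The granule proteases were the most abundant of the 10 genes in most groups. Over the 24 libraries Tpsb2, the beta tryptase, ranged from 3.22 to 102 FPKM with a median level of 29.0. Mcpt4 and Cma1, the chymases of connective tissue mast cells, had medians of 25.5 and 23.5 FPKM. Cpa3, carboxypeptidase A3, ranged from 1.76 to 39.9 FPKM with a median of 10.7. The receptor genes lay lower: Fcer1a, the IgE-binding alpha chain of the high-affinity receptor, had a median of 2.10 FPKM, Kit 1.85 and Ms4a2, the beta chain, 0.293. Hdc, the enzyme that makes histamine, had a median of 0.633 FPKM. Siglecf, the sialic acid-binding lectin of mouse eosinophils, never exceeded 0.613 FPKM and had no read in 4 libraries. Rnase2a, a ribonuclease gene of the eosinophil granule family, had no read in 6 libraries and reached 93.3 FPKM in 1.

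By group mean, Cpa3 was highest in eWAT GFP HFD (28.9 ± 16.4 FPKM, SD, n = 3) and iWAT irisin chow (26.0 ± 4.34). It was followed by iWAT GFP chow (14.7 ± 11.2), eWAT irisin chow (11.1 ± 3.65), eWAT irisin HFD (11 ± 6.48) and eWAT GFP chow (9.85 ± 3.41). The lowest means were those of iWAT GFP HFD (7.22 ± 3.23) and iWAT irisin HFD (3.71 ± 1.52). Neighbours in this order overlapped in their libraries, except that each iWAT irisin chow library was above each iWAT GFP chow library.

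**Figure D1:**
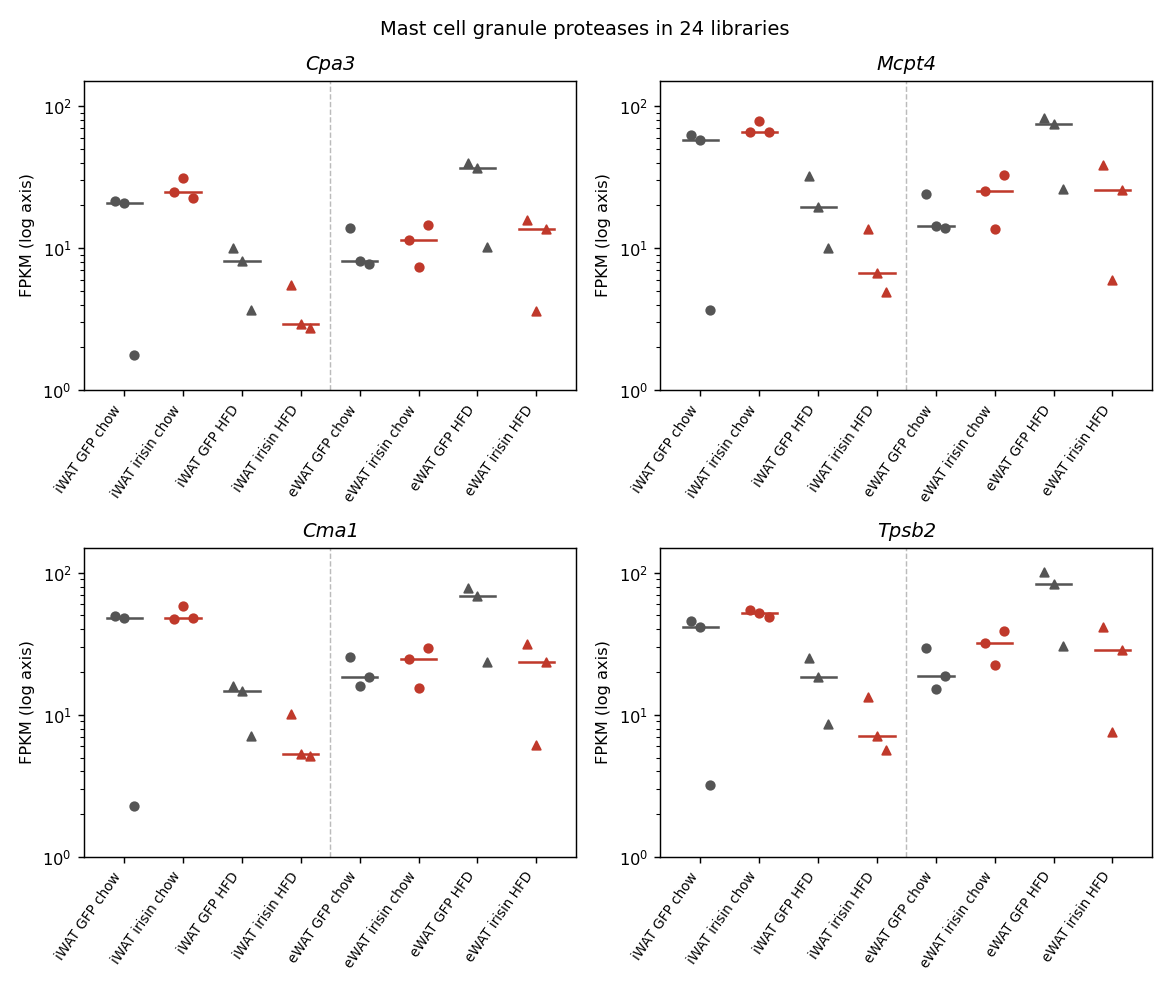
FPKM on a log axis of Cpa3, Mcpt4, Cma1 and Tpsb2 in each of the 24 libraries, by depot, vector and diet (circles, chow; triangles, HFD; grey, GFP; red, irisin; short lines, group medians). The 4 genes trace the same pattern, with the third iWAT GFP chow library far below the other libraries of its group (Cpa3 1.76 FPKM against 21.6 and 20.7).

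In iWAT of irisin mice, HFD went with lower levels of the mast cell proteases and a higher level of Rnase2a. The Cpa3 level was 24.7, 30.9 and 22.5 FPKM in the 3 chow libraries and 5.46, 2.91 and 2.75 in the 3 HFD libraries. That of Mcpt4 was 65.5, 78.5 and 65.9 FPKM on chow, against 13.6, 6.63 and 4.93 on HFD. For both genes every HFD library was below every chow library. Cpa3 fell by 2.70 ± 0.73 (log2; adjusted p = 0.0436) and Mcpt4 fell by 3.10 ± 0.87 (adjusted p = 0.0492, limma). Of the 10 genes 9 passed the filter on low values in iWAT, where Siglecf did not, and 3 of these 9 were called, 2 lower and 1 higher, against 9.01% of all genes tested (4.19% lower and 4.82% higher). Ms4a2 passed that filter only through its chow libraries and Rnase2a only through its HFD libraries.

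Cma1, Tpsb2 and Fcer1a had estimates of like size that did not pass the threshold, and those of Ms4a2 and Hdc were smaller. The log2 difference was -2.87 ± 0.89 for Cma1 (adjusted p = 0.0668, limma) and -2.60 ± 0.80 for Tpsb2 (0.0663). For Fcer1a it was -2.51 ± 0.75 (adjusted p = 0.0615, limma) and for Ms4a2 -1.07 ± 0.34 (0.0750). The Fcer1a level was 3.10, 6.41 and 3.04 FPKM on chow, against 0.977, 0.150 and 0 on HFD, where 0 reads allow a level of up to 0.168 FPKM. Kit went the other way (0.67 ± 0.29, adjusted p = 0.165, limma) and Hdc differed by -0.33 ± 0.23 (0.377). In 7 of the 10 genes each HFD library was below each chow library, and in 2 (Kit and Rnase2a) each was above. Over all genes tested the matching shares were 19.2% and 17.8%.

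These calls depended on which libraries were fitted. Without the third GFP chow library, which adds to the spread estimate but is in neither group, 7 members were called (Cpa3, Mcpt4, Cma1, Tpsb2, Fcer1a, Ms4a2 and Rnase2a), against 12.2% of all genes in that fit. Cpa3 lost its call without any 1 of the 6 libraries compared or GFP HFD 2 or 3 (adjusted p 0.05 to 0.143, limma), and Mcpt4 without those 8 or GFP chow 2 (0.0504 to 0.164). Rnase2a stayed called in all 12 of these fits (adjusted p up to 0.0332). The summed level of the 10 macrophage markers moved with the mast cell genes, from 336 to 407 FPKM on chow to 91.0 to 209 on HFD, with 9 of the 10 lower and 0 called (median difference -1.34 log2, against -0.02 for all genes). The 3 stromal progenitor markers also went from 149 to 208 FPKM to 17.3 to 57.2, and the 3 adipocyte markers from 1780 to 2220 FPKM to 3250 to 4780. Their part in the result was not tested.

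In iWAT of GFP mice 0 of the 9 genes tested were called (limma; 2 with an unadjusted p under 0.05, as had 19.1% of all genes), against 2.37% of all genes. Cpa3 was at 21.6, 20.7 and 1.76 FPKM on chow, against 9.93, 8.07 and 3.65 on HFD. The third chow library was below all 3 HFD libraries, so the groups overlapped (log2 difference -0.51 ± 0.73, adjusted p = 0.749, limma). Without that library the difference was -1.59, and Fcer1a and Cma1 were called lower (1.85% of all genes were called lower in that fit). Without chow library 1 or 2 it was 0.05 or 0.02. Kit and Rnase2a had the lowest adjusted p of the 9, both with positive differences (1.03 ± 0.29, adjusted p = 0.0936, and 2.08 ± 0.60, 0.0955). They and Hdc were higher in each HFD library than in each chow library, as were 12% of all genes. The vector by diet interaction in iWAT called 0 of 9 genes (limma; 3 with an unadjusted p under 0.05, as had 6.18% of all genes) and 0 of all genes, and for Cpa3 it was -2.19 ± 1.03 (adjusted p = 0.688).

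In eWAT of GFP mice the estimates for the proteases, Fcer1a and Kit were positive, while that of Hdc was near 0 (-0.02 ± 0.36, adjusted p = 0.971, limma). The Fcer1a level was 1.92, 1.16 and 1.56 FPKM on chow, against 7.69, 6.92 and 2.97 on HFD, with every HFD library above every chow library. Fcer1a rose by 1.56 ± 0.46 (log2; adjusted p = 0.0289, limma) and was the 1 gene called of the 9 that passed the filter, against 26.5% of all genes tested (14.7% higher). Ms4a2 did not pass the filter in eWAT, with levels of 0.305, 0.385 and 0.149 FPKM on chow, against 1.32, 1.16 and 0.398 on HFD. A count of 1 of 9 is not above that background. Mcpt4, Tpsb2, Fcer1a and Ms4a2 were higher in each HFD library than in each chow library, as were 22.9% of all genes.

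The proteases had the same sign as Fcer1a. Cpa3 was at 13.8, 8.08 and 7.69 FPKM on chow, against 39.9, 36.7 and 10.1 on HFD, so that the third HFD library overlapped the chow libraries. Its log2 difference was 1.33 ± 0.59 (adjusted p = 0.122, limma). Those of Tpsb2 (1.62 ± 0.59, adjusted p = 0.0652), Mcpt4 (1.66 ± 0.64, 0.0765) and Cma1 (1.33 ± 0.58, 0.112) were close to it, and that of Kit was smaller (0.67 ± 0.28, adjusted p = 0.103, limma). The third HFD library is the one with epididymal markers (summed level 386 FPKM, against 0 in the other 2), and without it 5 genes were called: Cpa3, Mcpt4, Cma1, Tpsb2 and Fcer1a, with Cpa3 at 1.95, against 19.5% of all genes in that fit. The Fcer1a call itself was lost without chow 2 or 3 or HFD 1 or 2 (adjusted p 0.0686 to 0.107). Without irisin HFD 2, which is in neither group, Fcer1a, Cma1, Tpsb2 and Mcpt4 were called, against 31.8% of all genes.

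Macrophage markers moved in the same comparison, from a summed 214 to 296 FPKM on chow to 872 to 1120 on HFD. All 10 were called, 7 higher and 3 lower, against 26.5% of all genes called in either direction. The part of macrophages in the mast cell result was not tested.

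In eWAT of irisin mice diet moved none of the 9 genes past the threshold (limma; 0 with an unadjusted p under 0.05, which 33.2% of all genes had), against 17.4% of all genes called. Cpa3 was at 11.4, 7.33 and 14.6 FPKM on chow, against 15.7, 3.60 and 13.7 on HFD, and its groups overlapped (-0.19 ± 0.59, adjusted p = 0.854, limma). The value turned to 0.43 without the second HFD library and to 0.02 without the third chow library. Ms4a2, not tested here, was above every chow library in each HFD library (0.423, 0.281 and 0.408 FPKM against 0.213, 0.249 and 0.275), as were 18.9% of the genes tested.

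**Figure D2:**
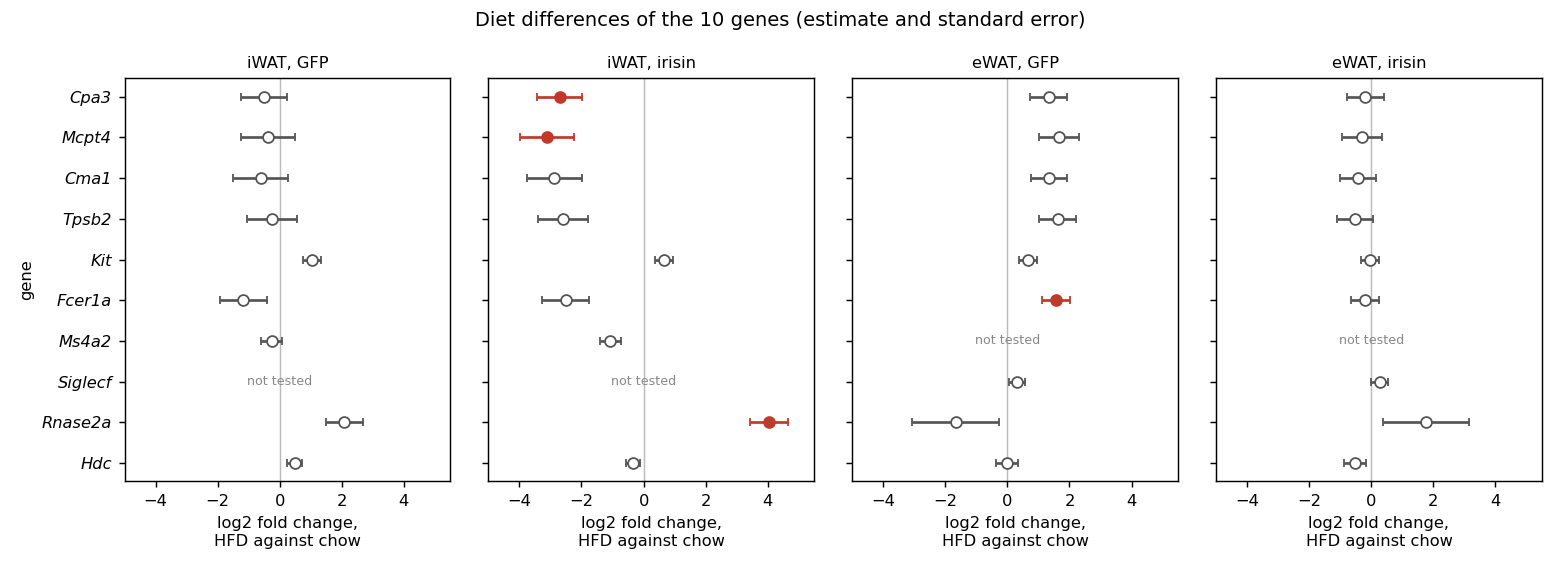
Difference of log2(FPKM + 0.5) between HFD and chow for the 10 genes in the 4 combinations of depot and vector; points are limma estimates, bars ± 1 standard error, and filled red points are called. Proteases and Fcer1a lie left of 0 in iWAT of irisin mice (Cpa3 -2.70) and right of 0 in eWAT of GFP mice (Cpa3 1.33).

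The depot by diet interaction asks whether the diet difference itself differed between the depots. For Cpa3 it was 1.83 ± 1.0 in GFP mice (adjusted p = 0.354, limma) and 2.51 ± 1.0 in irisin mice (0.154), eWAT above iWAT. For Fcer1a it was 2.73 ± 0.94 (adjusted p = 0.110, limma) and 2.31 ± 0.94 (0.159). Among the 10 genes 0 were called in either vector group (limma; 3 and 5 with an unadjusted p under 0.05, as had 18.3% and 21.3% of all genes), against 4.31% and 3.73% of all genes. Without the third iWAT GFP chow library 6 were called in GFP mice (Cpa3, Mcpt4, Cma1, Tpsb2, Fcer1a and Ms4a2) and 4 in irisin mice (Cpa3, Mcpt4, Cma1 and Ms4a2), against 6.55% and 6.27% of all genes in that fit. Without the second eWAT irisin HFD library 1 (Rnase2a) and 4 (Cpa3, Mcpt4, Fcer1a and Rnase2a) were called, against 6.65% and 13.7% of all genes. With all 24 libraries the depot by diet interaction did not pass the threshold for any of the 10 genes.

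Irisin against GFP moved none of the 9 genes tested in each depot past the threshold in either diet (Siglecf was not tested in iWAT nor Ms4a2 in eWAT), and it called 0 of all genes in each of these 4 comparisons. In eWAT on HFD, 6 of the 9 genes tested had an unadjusted p under 0.05, as had 9.28% of all genes. Cpa3 (-1.36 ± 0.59), Mcpt4 (-1.56 ± 0.64), Cma1 (-1.56 ± 0.58), Tpsb2 (-1.59 ± 0.59) and Fcer1a (-1.44 ± 0.46) were lower with irisin, each with an adjusted p of 0.533 (limma). Rnase2a, the other of the 6, was higher with irisin (3.36 ± 1.39, adjusted p = 0.533, limma). Its irisin libraries were at 0.3, 93.3 and 1.29 FPKM, so that estimate leans on 1 library. The GFP libraries were all at 0, which allows levels of up to 0.265, 0.254 and 0.243 FPKM. The levels of the 5 mast cell genes overlapped: Cpa3 was at 39.9, 36.7 and 10.1 FPKM with GFP and at 15.7, 3.60 and 13.7 with irisin. Without the second irisin library, the one low in macrophage markers, the Cpa3 difference was -0.73, and without the third GFP library it was -1.98. The eWAT interaction of vector and diet was -1.52 ± 0.84 for Cpa3 (adjusted p = 0.908, limma), with 0 of 9 genes called (2 with an unadjusted p under 0.05, as had 4.04% of all genes) and 0.00614% of all genes.

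In iWAT on chow, 5 genes (Cpa3, Mcpt4, Tpsb2, Kit and Hdc) were higher in each irisin library than in each GFP library, as were 8.22% of all genes. The Cpa3 difference was 1.37 ± 0.73 (adjusted p = 0.919, limma; 0 of 9 genes with an unadjusted p under 0.05, which 4.27% of all genes had), and it was 0.28 without the third GFP library. In iWAT on HFD all 10 genes overlapped between vectors (3.21% of all genes were higher and 3.13% lower without overlap), with Cpa3 at -0.83 ± 0.73 (adjusted p = 0.946, limma; 1 of 9 genes with an unadjusted p under 0.05, Rnase2a, as had 2.67% of all genes). In eWAT on chow all 10 overlapped as well (5.63% of all genes higher and 4.38% lower), with Cpa3 at 0.16 ± 0.59 (adjusted p = 1.0, limma; 0 of 9 with an unadjusted p under 0.05, which 5.19% of all genes had) and at -0.05 without the third irisin library. The difference of the vector effect between the depots was -1.20 ± 1.0 for Cpa3 on chow and -0.53 ± 1.0 on HFD (adjusted p = 1.0 in both, limma; 0 of 10 genes with an unadjusted p under 0.05 in either, which 3.15% and 2.5% of all genes had). On HFD it was 0.10 without the second eWAT irisin library.

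At the same vector and diet, the IgE receptor genes were lower in iWAT than in eWAT in GFP mice on HFD. Fcer1a was at 0.867, 0.710 and 0.160 FPKM in iWAT and at 7.69, 6.92 and 2.97 in eWAT, without overlap. The log2 difference, iWAT minus eWAT, was -2.53 ± 0.66 for Fcer1a (adjusted p = 0.0140, limma) and -0.96 ± 0.30 for Ms4a2 (adjusted p = 0.0364), which was at 0.271, 0.229 and 0.151 FPKM against 1.32, 1.16 and 0.398 FPKM. In 6 genes (Cpa3, Cma1, Tpsb2, Fcer1a, Ms4a2 and Siglecf) each iWAT library was below each eWAT library, as were 18% of all genes. Fcer1a and Ms4a2 were the 2 of the 10 genes called, against 15.2% of all genes (9.68% lower), so the count is little above that background. The iWAT levels of Ms4a2 stood on 15, 10 and 8 reads. Ms4a2 shares a run of 112 identical bases with Ms4a4b and at least 25 with 211 genes, so part of its reads could belong to others. Cpa3 differed by -1.81 ± 0.71 (adjusted p = 0.0931, limma) and Siglecf by -0.66 ± 0.23 (0.0601). The Fcer1a call was lost without iWAT HFD 3 or eWAT HFD 1 (adjusted p 0.0712 and 0.0704, limma), and the Ms4a2 call without iWAT HFD 2 or 3 or eWAT HFD 1 or 2 (0.0769 to 0.174). With the third iWAT GFP chow library left out, Cpa3, Cma1, Tpsb2, Fcer1a and Ms4a2 were called, against 17.2% of all genes in that fit. The Ms4a2 call was also lost with a pseudocount of 0.1 (adjusted p = 0.0782, limma), with no filter (0.0606) and with voom (0.14). Siglecf passed the filter only through eWAT libraries.

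On chow with irisin the order was turned: Cpa3, Mcpt4, Cma1, Tpsb2, Fcer1a and Ms4a2 were each higher in every iWAT library than in every eWAT library, as were 14.3% of all genes. Kit and Rnase2a were lower without overlap, a direction for which the share of all genes is not given here. Cpa3 was at 24.7, 30.9 and 22.5 FPKM in iWAT and at 11.4, 7.33 and 14.6 in eWAT. None of the 10 genes was called (limma; 1 with an unadjusted p under 0.05, as had 15.2% of all genes), with Cpa3 at 1.23 ± 0.71 (adjusted p = 0.457) and Ms4a2 at 0.82 ± 0.30 (0.162), against 4.33% of all genes. The summed level of macrophage markers was also higher in iWAT (336 to 407 FPKM, against 233 to 246, with 8 of 10 higher and 0 called), as was that of stromal progenitor markers (149 to 208, against 49.7 to 69.0), and their part in the result was not tested. On chow with GFP 0 of 10 were called (limma; 1 with an unadjusted p under 0.05, as had 15% of all genes), against 4.63% of all genes. There Cpa3 differed by 0.03 ± 0.71 (adjusted p = 1.0, limma), 1.11 without the third iWAT library, and Hdc by -0.90 ± 0.30 (0.115). On HFD with irisin 0 of 10 were called (limma; 2 with an unadjusted p under 0.05, as had 25.1% of all genes), against 10.3% of all genes. The differences were -1.28 ± 0.71 for Cpa3 (adjusted p = 0.279, limma), -1.49 ± 0.66 for Fcer1a (0.165) and -0.70 ± 0.23 for Siglecf (0.0569). Without the second eWAT irisin HFD library Fcer1a, Siglecf and Rnase2a were called in that comparison, with Fcer1a at -2.05, against 17.7% of all genes.

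**Figure D3:**
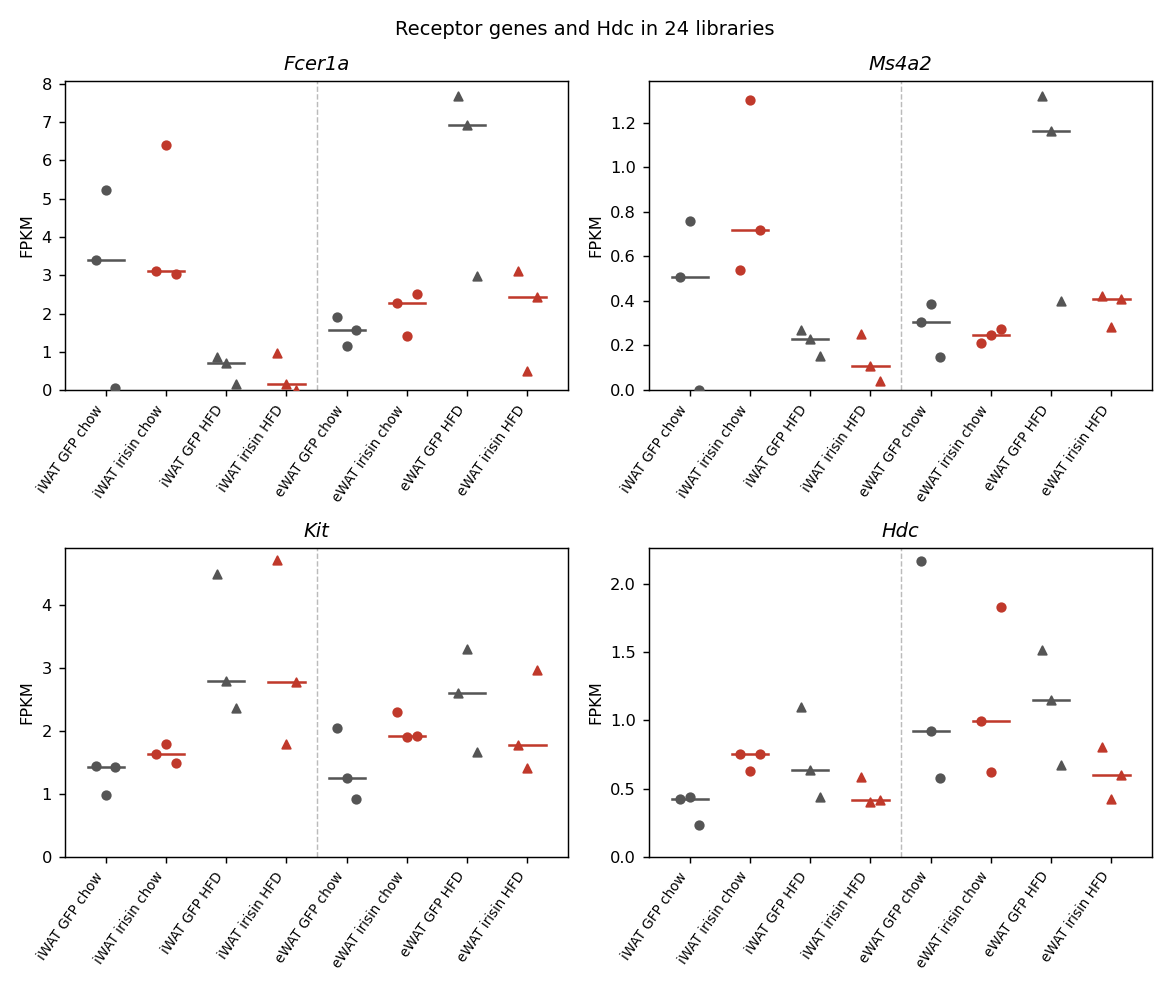
FPKM of Fcer1a, Ms4a2, Kit and Hdc in each of the 24 libraries (circles, chow; triangles, HFD; grey, GFP; red, irisin; short lines, group medians). Fcer1a is highest in eWAT GFP HFD libraries 1 and 2 (7.69 and 6.92 FPKM), Ms4a2 in eWAT GFP HFD 1 and iWAT irisin chow 2 (1.32 and 1.30 FPKM), while Kit reaches its highest level in an iWAT irisin HFD library (4.72 FPKM).

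Within groups the levels of the proteases varied together. Over the 24 libraries, after removal of the 8 group means, the log2 level of Cpa3 correlated with that of Mcpt4 with r = 0.99 (Spearman rho 0.97), of Tpsb2 with r = 0.99 (rho 0.98) and of Cma1 with r = 0.98 (rho 0.99). The permutation p, with libraries permuted within groups, was 1e-05 for Mcpt4 and Tpsb2, the smallest that 100000 permutations can give (4.5e-05 adjusted over 9 relations). Without the 2 libraries farthest from the median of Cpa3, iWAT GFP chow 3 and eWAT irisin HFD 2, r was 0.97 for Mcpt4 and Tpsb2 and 0.98 for Cma1. Fcer1a (r = 0.95, rho 0.94) and Ms4a2 (r = 0.83, rho 0.82) followed less closely. Each point is a whole tissue library, so the genes of a point share its depth and its mixture of cells.

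Hdc and Kit stood further off. For Hdc r with Cpa3 was 0.64 (rho 0.81, permutation p = 8e-05 for both), and for Kit it was 0.44 (rho 0.48, adjusted permutation p = 0.053 and 0.063). Siglecf had r = 0.46 (rho 0.45, adjusted permutation p = 0.057 and 0.063) and Rnase2a r = -0.45 (rho -0.40, adjusted p = 0.053 and 0.078). Kit is not private to mast cells: melanocytes and interstitial cells of Cajal also use it. Summed levels of 5 melanocyte markers were 0.801 to 4.43 FPKM. Those of 2 interstitial cell markers, which other cells of fat can express, were at 12.2 to 26.6 FPKM in eWAT on chow and at 1.68 to 9.80 elsewhere. The Kit level itself ranged from 0.913 to 4.72 FPKM, and the part of these cells in it was not tested. By likeness of the same deviations, its nearest genes, looked up after its values were seen, were Elk3 (r = 0.90), Clca2 (0.89), F2rl3 (0.88) and Pcdh12 (0.88), and no mast cell gene was among the 8 nearest.

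Among 13499 protein-coding genes, the 8 with patterns most like Cpa3 were Tpsb2, Mcpt4, Cma1, Fcer1a, Mrgprb1 (r = 0.95), Cd47 (0.93), Ly86 (0.92) and Entpd1 (0.90). Mrgprb1 is a receptor of the Mas-related family, to which the mast cell receptor Mrgprb2 belongs, Cd47 an inhibitory signal to phagocytes, Ly86 (MD-1) the partner of RP105 on B cells and macrophages, and Entpd1 (CD39) an ectoenzyme that degrades ATP. For Siglecf no gene came above r = 0.75, and its 8 nearest (Nrep, Arf5, Crisp2, Vsig8, Mapkapk2, Ptpn3, Doc2b and Arl6ip5) include no eosinophil marker of the lists used here.

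**Figure D4:**
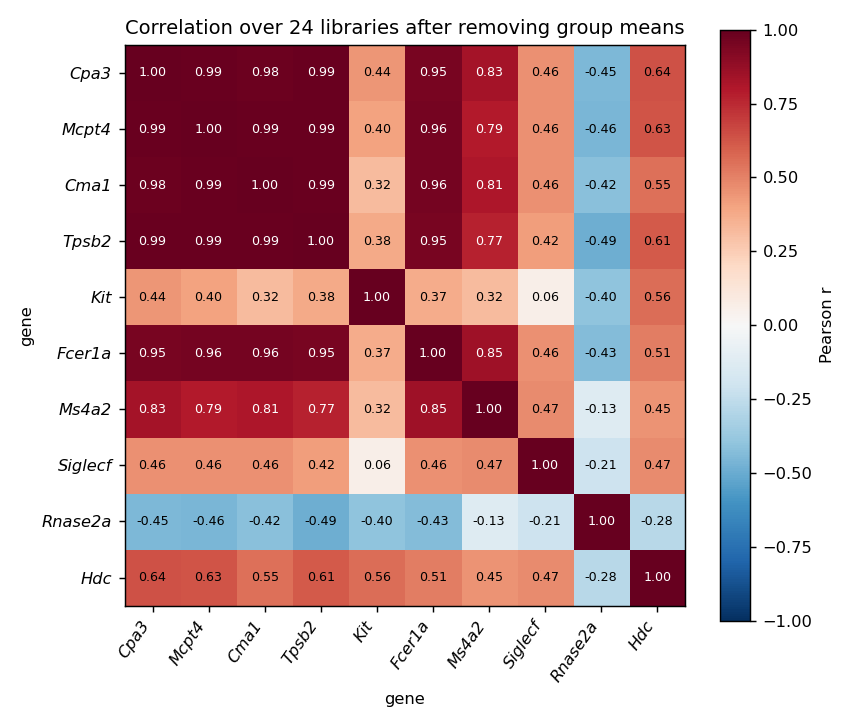
Pearson correlation over 24 libraries between the 10 genes, computed on log2(FPKM + 0.5) after the mean of each of the 8 groups was removed. The 4 proteases form a block at 0.98 to 0.99, Fcer1a joins it (0.95 with Cpa3), and Kit (0.44 with Cpa3) and Rnase2a (-0.45) stand apart.

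The proteases kept different proportions in the 2 depots, a feature looked for after their values were seen and given with no test. The ratio of the Mcpt4 level to the Tpsb2 level was 0.869 to 1.51 in the 12 iWAT libraries (median 1.17) and 0.610 to 0.942 in the 12 eWAT libraries (median 0.829). In 10 of 12 iWAT libraries it was above every eWAT library. The ratio of Mcpt4 to Cma1 showed the same (median 1.35 in iWAT and 1.05 in eWAT, 10 of 12 iWAT libraries above every eWAT library). Cma1 to Tpsb2 did not separate the depots (medians 0.840 and 0.798). Mcpt4 shares a stretch of 100 identical bases with the related gene Cma2 and Tpsb2 one of 39 with Tpsab1, so that a few reads of these genes could be assigned to either.

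In the deposited table (build not stated) Cpa3 is on chromosome 3 (20215620 to 20242181), Tpsb2 on chromosome 17 (25366550 to 25368094), Kit on chromosome 5 (75574916 to 75656722), Fcer1a on chromosome 1 (173221284 to 173227214) and Ms4a2 on chromosome 19 (11615523 to 11623719). Mcpt4 (56059629 to 56062313) and Cma1 (55941451 to 55944675) are both in the chymase locus on chromosome 14. The sequences just before the starts of mast cell genes, Kit among them, are shown, and their part in the levels was not tested. They are the 250 bases before the start of each gene in RefSeq (GRCm38.p6), on the strand of the gene, at chr3:20242182-20242431 (Cpa3), chr14:56062311-56062560 (Mcpt4), chr14:55944676-55944925 (Cma1), chr1:173227230-173227479 (Fcer1a), chr19:11623720-11623969 (Ms4a2) and chr5:75574737-75574986 (Kit). Of the 10 genes 9 had an entry, and Tpsb2 was the one without. Capitals mark GATAA or, on the other strand, TTATC, the core read by GATA factors such as GATA2, a regulator of mast cell genes.
Cpa3: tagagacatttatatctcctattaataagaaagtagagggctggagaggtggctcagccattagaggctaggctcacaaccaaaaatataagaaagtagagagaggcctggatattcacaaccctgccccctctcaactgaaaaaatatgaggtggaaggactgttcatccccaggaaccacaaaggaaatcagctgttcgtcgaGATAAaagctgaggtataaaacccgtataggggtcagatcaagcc
Mcpt4: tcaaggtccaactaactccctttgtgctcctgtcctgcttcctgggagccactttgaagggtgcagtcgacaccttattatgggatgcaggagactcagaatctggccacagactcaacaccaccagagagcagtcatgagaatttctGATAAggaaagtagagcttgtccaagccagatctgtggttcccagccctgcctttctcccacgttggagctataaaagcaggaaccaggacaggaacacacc
Cma1: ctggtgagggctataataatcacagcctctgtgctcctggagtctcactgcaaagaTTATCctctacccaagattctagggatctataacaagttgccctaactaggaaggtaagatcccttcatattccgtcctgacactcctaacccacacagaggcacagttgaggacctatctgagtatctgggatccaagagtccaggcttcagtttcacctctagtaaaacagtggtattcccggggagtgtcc
Fcer1a: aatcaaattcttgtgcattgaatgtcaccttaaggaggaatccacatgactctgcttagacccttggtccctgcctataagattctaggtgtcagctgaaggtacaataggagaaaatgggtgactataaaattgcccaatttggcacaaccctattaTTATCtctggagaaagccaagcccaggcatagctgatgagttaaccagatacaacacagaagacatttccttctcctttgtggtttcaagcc
Ms4a2: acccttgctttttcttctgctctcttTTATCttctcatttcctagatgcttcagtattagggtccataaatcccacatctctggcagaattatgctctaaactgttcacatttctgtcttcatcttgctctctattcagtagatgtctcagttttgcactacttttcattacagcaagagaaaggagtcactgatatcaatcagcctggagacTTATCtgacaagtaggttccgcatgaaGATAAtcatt
Kit: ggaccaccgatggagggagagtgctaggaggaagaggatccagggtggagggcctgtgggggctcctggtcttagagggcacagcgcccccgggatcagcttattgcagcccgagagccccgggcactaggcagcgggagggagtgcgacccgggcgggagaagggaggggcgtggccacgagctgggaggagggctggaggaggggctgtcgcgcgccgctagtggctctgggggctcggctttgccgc

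GATAA stood in 1 copy in the windows of Cpa3 (45 bases before the start), Mcpt4 (102), Cma1 (194) and Fcer1a (92). Ms4a2 had 3 copies, at 224, 37 and 10 bases before the start. Rnase2a had 1, and Kit, Hdc and Siglecf had none. By the coordinates of the deposited table, the Hdc window (chr2:126618679-126618928) lay inside the gene (126593667 to 126619299). The Kit window ran past the start given there. Kit had 2 windows in the RefSeq set, of which only the first was used. GATAA was thus present in 6 of 9 genes, and in 23.0% of 27025 genes with a window of this length. That background was not matched for G and C content. The hexamer CACATG (or CATGTG), an E-box form bound by MITF, was in 2 of 9 (Fcer1a and Siglecf) and in 12.2% of all windows. The Kit window was rich in G and C (70.8%), while the other 5 printed windows ranged from 38.8% to 51.2% (median of all genes 52.0%). These are matches of letters and not sites shown to be bound.

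Of 19 further mast cell genes 12 passed the filter in each depot. In iWAT of irisin mice on HFD 5 fell and 1 rose (median difference -1.04 log2, against -0.02 for all genes), where 4.19% of all genes were called lower and 4.82% higher. Of the 5 that fell, 4 (Mrgprb2, Tpsg1, Mrgprb1 and Slc45a3) passed the filter only through chow libraries. Mrgprb2, the receptor through which basic peptides and drugs activate mast cells, fell by 1.66 ± 0.34 (adjusted p = 0.0176, limma). Il1rl1, which codes for the IL-33 receptor ST2, fell by 1.03 ± 0.23 (adjusted p = 0.0221), from 3.30, 2.86 and 2.57 FPKM to 1.13, 1.01 and 1.37. Tpsg1, the gamma tryptase, fell by 1.47 ± 0.34 (adjusted p = 0.0241). Ltc4s, leukotriene C4 synthase, rose by 1.07 ± 0.26 (adjusted p = 0.0326). ST2 is carried by other cells of fat too, among them regulatory T cells. Each of these 4 calls was lost without 1 or more of the 6 libraries compared, with adjusted p up to 0.0785 for Mrgprb2, 0.0783 for Il1rl1, 0.0957 for Tpsg1 and 0.110 for Ltc4s. No lost call followed from any of the 3 GFP chow or 3 GFP HFD libraries.

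In eWAT of GFP mice on HFD 3 of the 12 rose (median difference 0.55 log2, against 0.00 for all genes), where 14.7% of all genes were called higher. Hpgds, the haematopoietic prostaglandin D synthase, was at 0.749, 0.876 and 0.829 FPKM on chow, against 23.2, 24.8 and 18.1 on HFD. It rose by 4.09 ± 0.57 (adjusted p = 0.00122, limma) and kept its call without any 1 library. It is also a gene of macrophages, whose markers rose in these libraries. Slc45a3 rose by 1.54 ± 0.44 (adjusted p = 0.0252), a call lost without chow 2, chow 3 or HFD 3 (0.0687, 0.0635 and 0.0734). Tpsab1, the tryptase next to Tpsb2, rose by 1.18 ± 0.35 (adjusted p = 0.0302), a call lost without chow 2 or 3 or HFD 1 or 2 (0.0751 to 0.118). The mucosal mast cell proteases Mcpt1 and Mcpt2 were at or near 0 (at most 0.0600 and 0.144 FPKM), against up to 82.9 FPKM for the connective tissue chymase Mcpt4. In eWAT of irisin mice Hpgds rose by 2.52 ± 0.57 (adjusted p = 0.0148), a call lost without chow 2 or 3 or HFD 1 (0.0517 to 0.0596), and 0 others of the 12 were called.

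The signalling genes downstream of the IgE receptor are shared with macrophages and lymphocytes. In eWAT on HFD 9 of 14 rose in GFP mice (median difference 1.37 log2, against 0.00 for all genes) and 5 of 14 in irisin mice (1.20), where 26.5% and 17.4% of all genes were called in either direction. Fcer1g, the gamma chain that the IgE receptor shares with IgG receptors, was at 42.6, 31.4 and 33.3 FPKM on chow, against 247, 168 and 160 on HFD with GFP. It rose by 2.39 ± 0.42 (adjusted p = 0.00283, limma). The adaptor gene Lat2 rose by 3.71 ± 0.65 (adjusted p = 0.00282), the kinase gene Lyn by 1.29 ± 0.27 (0.00645) and the lipid phosphatase gene Inpp5d by 1.69 ± 0.41 (0.0120). These 4 calls held without any 1 library. The highest level of the mast cell chain Fcer1a was 7.69 FPKM. In iWAT 0 of the 14 were called by diet in either vector group (limma).

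Of 14 ligands and growth factors 8 passed the filter. Ccl24, eotaxin 2, was at 11.4, 12.1 and 14.1 FPKM on chow, against 1.27, 1.58 and 0.950 on HFD in eWAT of GFP mice. It fell by 2.89 ± 0.28 (adjusted p = 0.000416, limma) there and fell by 1.23 ± 0.28 (adjusted p = 0.0162) in irisin mice, where the call was lost without chow 2 (0.0660). Tslp, an epithelial and stromal cytokine that activates mast cells, fell by 0.98 ± 0.23 in GFP mice (adjusted p = 0.00994), a call lost without the 4 libraries rich in other tissues (0.0661). The stem cell factor gene Kitl ranged from 6.37 to 17.9 FPKM and the eotaxin 1 gene Ccl11 from 26.5 to 74.4 without a call by diet. Il3, Il5, Il13, Il9, Il25 and Csf2 stayed under 0.5 FPKM in every library. Of 9 other receptor genes 8 passed the filter, and 4 rose in eWAT of GFP mice, where 14.7% of all genes were called higher. Il3ra rose by 1.47 ± 0.26 (adjusted p = 0.00324, limma), Csf2rb2 by 2.58 ± 0.58 (0.00890), Il13ra1 by 0.56 ± 0.17 (0.0345) and Csf2rb by 1.32 ± 0.41 (0.0349). The last 2 calls were lost without chow 2 or 3 or any HFD library (adjusted p 0.0567 to 0.113 and 0.0527 to 0.117). In iWAT of irisin mice the histamine receptor gene Hrh1 fell by 1.04 ± 0.28 (adjusted p = 0.0449), a call that 9 of 12 fits without 1 library lost (0.0558 to 0.143).

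Reads of several eosinophil genes were few. Siglecf stood on 223 reads in all 24 libraries together, at most 0.191 FPKM in iWAT and 0.0857 to 0.613 in eWAT. Its diet difference in eWAT was 0.31 ± 0.27 with GFP (adjusted p = 0.429, limma) and 0.27 ± 0.27 with irisin (0.526), and its vector difference on HFD was 0.10 ± 0.27 (0.908) and 0.00 without the second GFP library. Epx, eosinophil peroxidase and a defining granule gene, had no read in 20 libraries and at most 0.0409 FPKM. Prg2, major basic protein, ranged from 0 to 1.82 FPKM, and Il5ra, the IL-5 receptor chain, from 0 to 1.17. Ccr3 reached 0.5 FPKM in 7 libraries, all of them eWAT, and Prg2 in 11. Mast cell proteases were found in every library. Of the eosinophil genes Epx was near 0 throughout and Siglecf, Prg2, Il5ra and Ccr3 were low. Ear2 (5.62 to 56.2 FPKM) and, in eWAT, Alox15 (1.27 to 31.7 FPKM) were not. The basophil gene Mcpt8 had no read in 22 libraries and at most 0.0751 FPKM.

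Rnase2a did not stay low as Siglecf and Epx did. In iWAT it was at 0, 0.257 and 0.0901 FPKM (GFP chow) and at 0.0995, 0 and 0 (irisin chow). On HFD it was at 1.48, 0.467 and 8.26 with GFP and at 7.14, 9.12 and 8.48 with irisin. Every HFD library was above every chow library with either vector. In irisin mice this stands for 280 reads against 1, a ratio of 263 (95% interval of counting error 46.9 to 10400), and Rnase2a rose by 4.04 ± 0.60 on the log2(FPKM + 0.5) scale (adjusted p = 0.00536, limma). Rnase2a passed the filter only through these HFD libraries, and with no filter its adjusted p was 0.0146. Between the vectors on HFD the difference was 1.77 ± 0.60 with an adjusted p of 0.946 (limma), and the third GFP library lay within the irisin range. It was 2.66 without that library.

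In eWAT the Rnase2a level was 0.191, 2.72 and 1.30 FPKM (GFP chow), 0.522, 0.548 and 2.71 (irisin chow), 0 in all 3 GFP HFD libraries, and 0.3, 93.3 and 1.29 (irisin HFD). A count of 0 allows 0.265, 0.254 and 0.243 FPKM in the GFP HFD libraries. The 93.3 FPKM came from 896 reads of 1 library, the same one that was low in proteases and macrophage markers and high in adipocyte markers (summed level 3780 FPKM, against 2270 and 1820). The diet difference in eWAT with irisin, 1.76 ± 1.39 (adjusted p = 0.410, limma), became -0.33 without it. Over all 24 libraries the genes nearest to Rnase2a, looked up after its values were seen, were Slc9b2 (r = 0.90), Opn3 (0.87), Hist1h2bb (0.86) and Cpne2 (0.85), none of them an eosinophil gene of the lists.

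**Figure D5:**
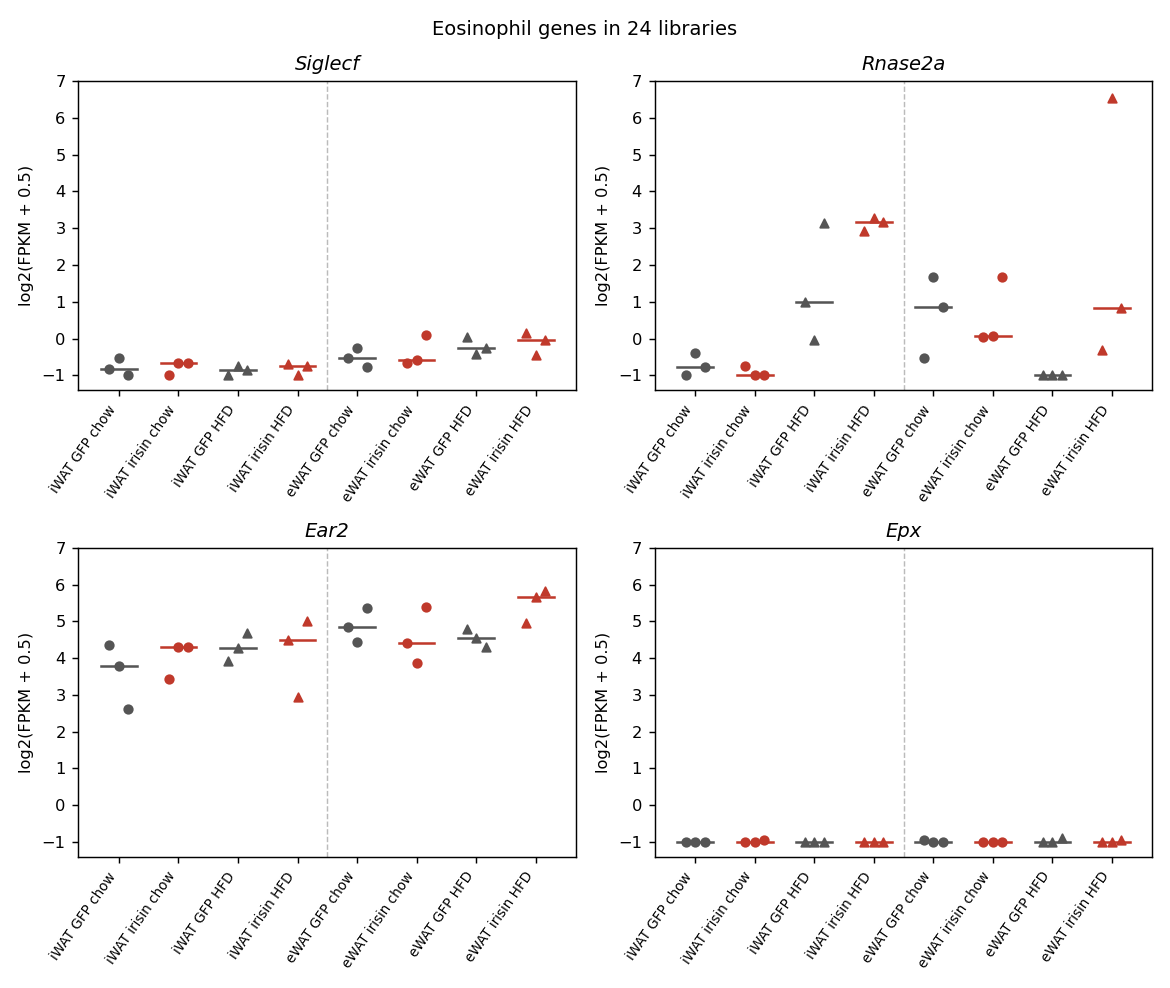
log2(FPKM + 0.5) of Siglecf, Rnase2a, Ear2 and Epx in each of the 24 libraries, where -1 stands for a level of 0 (circles, chow; triangles, HFD; grey, GFP; red, irisin; short lines, group medians). Epx lies at the floor throughout, Rnase2a is at 7.14 to 9.12 FPKM in 4 of the 6 iWAT HFD libraries and at 93.3 in 1 eWAT irisin HFD library, and Ear2 is present in all libraries (5.62 to 56.2 FPKM).

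The ribonuclease family to which Rnase2a belongs has 7 genes in the table, of which 2 (Ear6 and Ear14) had no read in any library and 3 reached 0.5 FPKM in at least 3 libraries (Rnase2a, Ear1 and Ear2). Ear2 was the abundant one, from 5.62 to 56.2 FPKM, and macrophages and monocytes are also known to express it. Rnase2a shares a run of 46 identical bases with the pseudogenes Ear-ps2 and Ear-ps9 and at least 25 with 13 genes, so part of its reads could belong to a relative. Rnase2b, the gene most alike in name, was at most 0.958 FPKM.

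Of 11 further eosinophil genes 6 passed the filter over both depots, and Alox15, Ccr3 and Ear1 did so only through eWAT, where they were higher, as did the basophil gene Prss34. Alox15, a lipoxygenase of eosinophils and of resident peritoneal macrophages, was lower in iWAT in all 4 comparisons of the depots. On chow with GFP it was at 0.134, 0.410 and 0 FPKM in iWAT and at 29.6, 17.2 and 31.7 in eWAT (-5.29 ± 0.41, adjusted p = 1.04e-07, limma), and the other 3 differences were -4.02 ± 0.41, -2.03 ± 0.41 and -2.65 ± 0.41 (irisin chow, GFP HFD and irisin HFD; adjusted p 3.21e-06, 0.00227 and 0.000796). The last of these was lost with only the groups compared in the fit (0.0955). In eWAT of GFP mice Alox15 fell by 3.44 ± 0.49 on HFD (adjusted p = 0.00141). Ccr3, the eotaxin receptor, was lower in iWAT than in eWAT on HFD with GFP (-1.70 ± 0.31, adjusted p = 0.000977, limma) and with irisin (-1.06 ± 0.31, 0.0341). It rose by 1.18 ± 0.38 on HFD in eWAT of GFP mice (adjusted p = 0.0435), a call lost in 8 of 12 fits without 1 library (0.0509 to 0.117), and it passed the filter there only through HFD libraries. The irisin call was lost without any of the 3 iWAT HFD libraries or eWAT HFD 1 or 3 (adjusted p 0.0622 to 0.211). Of the basophil list Prss34 was lower in iWAT on chow with GFP (-1.15 ± 0.29, adjusted p = 0.0237) and on HFD with GFP (-1.39 ± 0.29, 0.00288). The first of these was lost without iWAT chow 3 or eWAT chow 1 or 2 (adjusted p 0.0662 to 0.118).

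Between the depots, 3 of 13 further mast cell genes tested were lower in iWAT than in eWAT in GFP mice on HFD. There 15.2% of all genes were called (9.68% lower). The log2 difference, iWAT minus eWAT, was -3.38 ± 0.62 for Hpgds (adjusted p = 0.00105, limma) and -2.02 ± 0.45 for Slc45a3 (0.00502), and both calls held without any 1 library, while that of Slc45a3 was lost with only the groups compared in the fit (0.0664). For Il1rl1 it was -1.03 ± 0.30 (adjusted p = 0.0250, limma). Its iWAT levels ran from 1.24 to 1.54 FPKM, and the eWAT libraries were higher without overlap at 4.22, 4.93 and 1.83. That call was lost without iWAT HFD 2 or 3 or eWAT HFD 1 or 2 (adjusted p 0.0533 to 0.118). In irisin mice on HFD Hpgds was lower in iWAT (-2.68 ± 0.62, adjusted p = 0.0101, limma), a call lost without iWAT HFD 2 or eWAT HFD 1 or 3 (0.0613 to 0.0711). On chow with irisin Ltc4s was lower in iWAT (-0.95 ± 0.24, adjusted p = 0.0226, limma), a call lost without iWAT chow 2 or 3 or eWAT chow 2 or 3 (0.0659 to 0.106). Ear1, of the eosinophil list, was lower in iWAT on HFD with irisin (-1.07 ± 0.32, adjusted p = 0.0391, limma), a call lost without any of the 3 iWAT HFD libraries or eWAT HFD 1 or 3 (0.0634 to 0.211).

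Of the signalling and receptor genes, Fcer1g and Lat2 were lower in iWAT than in eWAT on HFD. With GFP the log2 difference was -2.56 ± 0.49 for Fcer1g (adjusted p = 0.00158, limma) and -2.98 ± 0.64 for Lat2 (0.00352), and both calls held without any 1 library. With irisin it was -2.21 ± 0.49 (adjusted p = 0.00844, limma) and -2.74 ± 0.64 (0.0106), and both were lost without iWAT HFD 2 or eWAT HFD 1 or 3 (adjusted p 0.0564 to 0.0757). Plcg1, a phospholipase gene, was higher in iWAT (0.71 ± 0.19 with GFP, adjusted p = 0.0151, limma, and 0.80 ± 0.19 with irisin, 0.0120), and each call was lost without eWAT HFD 1 of its vector (0.107 and 0.0767). Syk was lower in iWAT with irisin (-2.11 ± 0.55, adjusted p = 0.0193, limma), a call lost without iWAT HFD 2 or 3 or eWAT HFD 1 or 3 (0.0655 to 0.117). The interleukin-3 receptor gene Il3ra was lower in iWAT on HFD with GFP (-1.13 ± 0.27, adjusted p = 0.00818, limma) and with irisin (-1.08 ± 0.27, 0.0162), calls lost without 2 and 3 single libraries (adjusted p up to 0.0568 and 0.107). Of the basophil list, Il6ra was lower in iWAT on HFD with irisin (-0.52 ± 0.15, adjusted p = 0.0369, limma), a call lost without any iWAT HFD library or eWAT HFD 1 or 3 (0.0629 to 0.147). With only the groups compared in the fit, the irisin calls of Hpgds, Fcer1g, Lat2, Plcg1, Syk, Il3ra and Il6ra were lost (adjusted p 0.103 to 0.152), as were the GFP calls of Il1rl1 and Plcg1 (0.0899 and 0.0712). Macrophage markers were lower in iWAT in the same comparisons (6 of 10 called with GFP and 5 of 10 with irisin, against 15.2% and 10.3% of all genes in either direction). Their part in these results was not tested. In eWAT of irisin mice on HFD 5 of 14 signalling genes rose, where 17.4% of all genes were called in either direction. They were led by Lat2 (2.92 ± 0.65, adjusted p = 0.0144, limma), Lyn (1.18 ± 0.27, 0.0160), Syk (1.73 ± 0.42, 0.0204) and Fcer1g (1.42 ± 0.42, 0.0405). Each of these 4 calls was lost without 1 or more libraries: Lat2 without chow 2 or HFD 1, Lyn without chow 2 or 3 or HFD 1, Syk without any chow library or HFD 1, and Fcer1g in 10 of 12 such fits (adjusted p up to 0.0561, 0.0623, 0.0640 and 0.140). Il3ra rose by 1.05 ± 0.26 there (adjusted p = 0.0230, limma), a call lost without chow 1 or 2 or HFD 1 or 3 (0.0608 to 0.0806).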

How the data were processed

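Gene levels of 24 libraries were taken as FPKM from the table deposited by the authors. The submitters' processing notes name HISAT2 2.0.5 and featureCounts 1.5.0-p3, while genome build and strandedness are not given in the sources used here. Without strand, reads of overlapping antisense genes cannot be told apart. All values were whole reads to within 0.01 once scaled by gene length, which gave depths of 14.1 M to 19.7 M reads. Intervals and floors (3 counts) cover counting error only. A further 8 columns, equal to group means, were not used.

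limma 3.58.1 (R 4.3.3) with a trended variance was fitted to log2(FPKM + 0.5) of genes at 0.5 FPKM or more in at least 3 libraries fitted. The 4 groups of a depot entered one fit (16125 genes in iWAT, 16274 in eWAT), and all 8 groups one fit for comparisons of the depots (17687 genes). P-values were adjusted by Benjamini-Hochberg over all genes tested, with calls at 0.05, and 18 comparisons were made. An exact permutation test of 3 libraries against 3 cannot give a p below 0.1. The fits were tested on simulated data. Tables and figures used Python 3.11.15, pandas 2.3.3, NumPy 2.4.6 and matplotlib 3.10.9.

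The members and lists were chosen with earlier results of these data known. All 10 members were described, with effects for called members and for Cpa3, Siglecf and Rnase2a, and up to 4 called genes per list and comparison were named by smallest adjusted p. Other members' effects and other list genes (among them Epx, Prg2, Il5ra, Mcpt1, Mcpt2, Mcpt8, Kitl, Ccl11 and Rnase2b) were chosen after their values were seen. Same-numbered libraries were not treated as pairs. Their deviations had r of -0.17 to 0.36, and in 0 of 12 comparisons was every pair over 0.1. In 1 of 12 every library correlated best with its own number. Such correlations cannot exclude that same-numbered libraries share an animal. Alternatives covered the pseudocount, the filter, scaling, the replicate block, the groups fitted, array weights, voom on recovered reads, the 4 libraries rich in other tissues and each library left out.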

Additional observations from a re-analysis of the deposited data

Results flagged for a closer look

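None of the 10 marker genes was called for a difference between the depots in its diet effect, while some genes of the related lists were. Of 13 further mast cell genes tested 1 was called in each vector group. Of 6 further eosinophil genes 1 was called with GFP and 0 with irisin. Of 14 signalling genes 1 was called with GFP and 3 with irisin, and of 3 basophil genes 0 with either. Over all genes tested 4.31% were called in GFP mice and 3.73% in irisin mice. Values are the diet difference in eWAT minus that in iWAT (log2 ± SE, limma, Benjamini-Hochberg adjusted p from the interaction term). In GFP mice Alox15 differed by -3.25 ± 0.58 (adjusted p = 0.00584) and Hpgds by 3.96 ± 0.87 (0.0156), and both calls held in all 24 fits without 1 library. Both were lost without the 4 libraries rich in other tissues (adjusted p = 0.0555 and 0.0660) and with voom (0.362 and 0.0648). Alox15 never exceeded 0.41 FPKM in iWAT, so a fall on HFD could hardly show there on this scale. Its value thus rests on the diet difference in eWAT (-3.44 ± 0.49).

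In GFP mice Fcer1g differed by 2.58 ± 0.69 (adjusted p = 0.0404, limma) and Il3ra by 1.54 ± 0.38 (0.0276), calls that held in 8 and 17 of 24 fits without 1 library. In irisin mice Hpgds differed by 3.63 ± 0.87 (adjusted p = 0.0302, limma), Fcer1g by 2.93 ± 0.69 (0.0291) and Il3ra by 1.80 ± 0.38 (0.0216), held in 15, 15 and 18 of 24. Syk differed by 2.93 ± 0.77 (adjusted p = 0.0416, limma) and Lat2 by 3.30 ± 0.90 (0.0473), held in 10 and 6 of 24. Macrophage markers, whose summed level was 872 to 1120 FPKM in eWAT of GFP mice on HFD and 114 to 234 in iWAT, moved with these genes, and their part in the result was not tested.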

How the results depend on the processing

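Of 18 comparisons, the number of marker genes called moved by over 1.5 times in those below, and the cause was not tested. For HFD against chow in iWAT of irisin mice (3 called) it was 1 with no filter, 6 with the replicate block, 7 with only the groups compared, 9 with array weights, 1 with voom, 1 without the 4 libraries rich in other tissues and 1 to 7 without 1 library. In iWAT of GFP mice (0 called) it was 6 with array weights and 0 to 2 without 1 library. In eWAT of GFP mice (1 called) it was 0 with no filter, 2 with the replicate block, 3 with only the groups compared, 6 with array weights, 4 without the 4 libraries and 0 to 5 without 1 library. In eWAT of irisin mice array weights called 1. For iWAT against eWAT in GFP mice on HFD (2 called) it was 1 with no filter, 4 with the replicate block, 6 with array weights and 0 to 5 without 1 library. On chow with irisin (0 called) it was 4 with only the groups compared and 2 with array weights, and on HFD with irisin (0 called) 6 with array weights and 0 to 3 without 1 library. The depot by diet interactions (0 called) gave 7 with array weights for either vector, and 0 to 6 (GFP) and 0 to 4 (irisin) without 1 library. Array weights also raised the share of all genes called, to 46.6% for diet in iWAT of irisin mice and 60.3% in eWAT of irisin mice, and did not fully converge in some fits. The block changed no other member count by over 1.5 times.

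The values below changed sign, none of them called. Cpa3 by diet in iWAT of GFP mice ranged from -1.59 to 0.05 without 1 library (0.05 and 0.02 without chow 1 or 2). In eWAT of irisin mice it was 0.55 with array weights and -0.56 to 0.43 without 1 library, and Rnase2a there, 1.76 as reported, was -0.78 with array weights and -0.33 to 3.10 without 1 library. Cpa3 by vector in eWAT on chow ranged from -0.05 to 0.42, Siglecf by vector in eWAT on HFD from 0.00 to 0.27, and the depot by vector interaction of Cpa3 on HFD from -1.16 to 0.10. Cpa3 by depot on GFP chow was -0.02 with a pseudocount of 0.1, -0.01 with voom and -0.53 to 1.11 without 1 library. Of 6 calls of marker genes, 1 (Rnase2a, which passed the filter only through the libraries where it was high) held without any 1 library. Of 69 calls of genes of the other lists 22 held without any 1 library and 25 under every other alternative. Depth limits Siglecf, at 223 reads in all.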
